A study of Mus musculus with 2 samples.

Results

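The genes described here are 10 markers of the liver sinusoidal endothelial cell, namely Clec4g, Stab1, Stab2, Lyve1, Fcgr2b, Pecam1, Cdh5, Kdr, Tek and Oit3. They were found by gene symbol in the deposited tables, where each symbol belonged to 1 of 37146 gene identifiers, and together they held 58 of 119289 rows, each for a transcript or for the genomic span of a gene. The libraries came from liver of CD-1 mice, an outbred laboratory strain. The NP library stands for mice dosed orally with a suspension of titanium dioxide nanoparticles at 50 mg/kg per day, stirred by ultrasound for 30 min. The Control library stands for mice given the same volume of phosphate-buffered saline (PBS). There was 1 library per group. The sources used here give no age, no sex, no length of dosing and no number of mice for either. No difference below therefore has a replicate check, no test was possible, and every comparison describes these 2 libraries.

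Sinusoidal endothelial cells line the capillaries of the liver lobule. Their wall is fenestrated and has no continuous basement membrane, so that plasma reaches the hepatocytes directly. They clear waste macromolecules from the blood through scavenger and Fc receptors, and they depend on vascular endothelial growth factor (VEGF) made by neighbouring cells. Several of the markers are shared with other cells: Pecam1, Cdh5, Kdr and Tek with endothelium in general, Lyve1 with lymphatic vessels, Stab1 with macrophages, and Fcgr2b with B cells and macrophages.

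All 10 markers had a lower level in NP than in Control, against 54.4% of the 10533 genes whose 2 levels averaged 1 FPKM or more (FPKM counts fragments per kilobase of a row, scaled to the mapped fragments of the library). The ratio of NP to Control ran between 0.454 for Lyve1 and 0.973 for Stab1, with a median of 0.749. The sum over the markers was 91.7 FPKM in NP and 119 FPKM in Control, a ratio of 0.768. Without Clec4g, the most abundant marker, the sums were 61.1 FPKM in NP and 74.8 FPKM in Control, a ratio of 0.817. Each level was given with the 95% interval that Cufflinks attaches to the rows of a single library, combined over the rows of a gene, which holds no spread between animals. For 3 markers, Clec4g, Kdr and Oit3, the intervals were separate with NP lower, against 9.58% of the 10533 genes. For 0 markers they were separate with NP higher, against 7.73% of genes.

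By size, 4 of the 10 markers were at least 1.5-fold lower in NP by plain FPKM, namely Lyve1, Tek, Kdr and Oit3. Lyve1 is counted although it passed the mean of 1 FPKM through its Control value. Of all genes above 0 in both libraries, 7.42% were that much lower. As much higher were 0 markers, against 4.92% of genes. The shares depend on level. Between 1 and 5 FPKM, 13.6% of genes were that much lower, 57.1% were lower by any amount and 7.05% had separate intervals with NP lower; of the 4 markers there, 2 (Lyve1 and Tek) passed the size and 0 had separate intervals. Between 5 and 20 FPKM the shares were 4.94%, 55.3% and 9.43%, and of the 4 markers there, 2 (Kdr and Oit3) passed the size and the same 2 had separate intervals. From 20 FPKM up the shares were 2.91%, 49.4% and 13.1%, and of the 2 markers there, 0 passed the size and 1 (Clec4g) had separate intervals. On the scale of log2(FPKM + 1), which shrinks the differences of low genes, 0 of 10 markers were 1.5-fold lower and 0 were 1.5-fold higher, against 5.33% and 3.6% of all genes. The median log2 ratio of the markers on that scale was -0.33, and that of all genes was -0.03. Such a difference in bulk tissue cannot separate fewer endothelial cells from less RNA per cell.

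**Figure D1:**
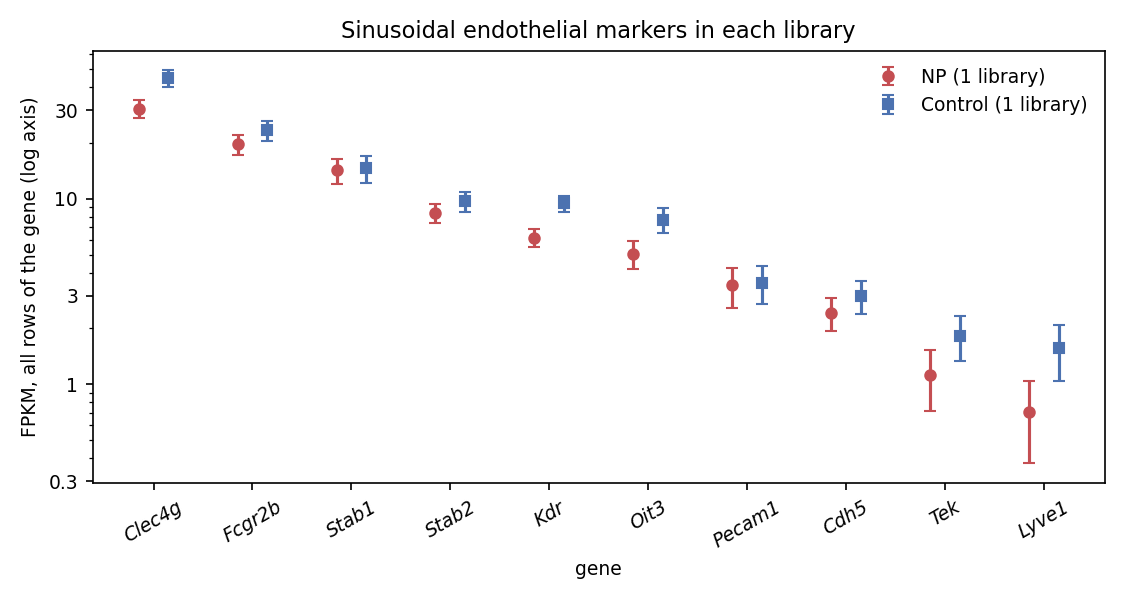
Level of each marker in FPKM, summed over all rows of the gene, on a log axis, for NP (circles) and Control (squares), 1 library each. Bars are the 95% interval of Cufflinks within a library; the intervals of Clec4g, Kdr and Oit3 do not meet.

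Both libraries ordered the markers alike by FPKM, a per-length scale on which genes can be compared. Clec4g was highest, followed by Fcgr2b, Stab1, Stab2, Kdr, Oit3, Pecam1, Cdh5, Tek and Lyve1. In each library 4 of the 9 neighbouring pairs in this order had overlapping intervals. In NP these were Kdr with Oit3, Oit3 with Pecam1, Pecam1 with Cdh5, and Tek with Lyve1. In Control they were Stab2 with Kdr, Kdr with Oit3, Pecam1 with Cdh5, and Tek with Lyve1. Stab2 and Kdr stood apart in NP, at 8.37 and 6.16 FPKM, and could not be told apart in Control, at 9.70 and 9.44 FPKM. With the single highest transcript row of each gene in place of the sum, 7 of the 10 markers took another place in NP and 7 in Control.

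By summed FPKM, the 4 most abundant markers were scavenger, lectin and Fc receptors. By its highest transcript row, Stab2 (4.76 FPKM in NP, 5.59 FPKM in Control) lay below Kdr and Oit3 in both libraries. Clec4g encodes LSECtin, a C-type lectin of the sinusoidal cell surface, and spans chromosome 8 from 3707064 to 3720651 in build mm9, the build of all deposited coordinates. It was at 30.6 FPKM (interval 27.1 to 34.0) in NP and 44.6 FPKM (40.1 to 49.1) in Control, a ratio of 0.686. It made up 33.3% of the markers' summed FPKM in NP and 37.3% in Control. Of its 3 transcript rows only the coding one of 1242 nt was above 0, with a read coverage of 89.1 in NP and 100.6 in Control. Coverage is not scaled to library size, and the NP library was the deeper one, with a coverage per FPKM 1.28 times that of Control.

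Stab1 and Stab2 encode stabilin-1 and stabilin-2, large endocytic receptors, of which stabilin-2 is the main hyaluronan clearance receptor. Stab1 (chromosome 14, 31952199 to 31981827) was at 14.2 FPKM (12.0 to 16.4) in NP and 14.6 FPKM (12.2 to 17.0) in Control. Stab2 (chromosome 10, 86303943 to 86470770) was at 8.37 FPKM (7.37 to 9.38) in NP and 9.70 FPKM (8.53 to 10.9) in Control. The intervals of both genes overlapped between the libraries when rows were simply summed. That sum gives a short row the same weight as a long one, which mattered most for these 2 genes.

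The coding row of Stab1, 7999 nt long, was at 3.21 FPKM (2.75 to 3.66) in NP and 4.46 FPKM (3.91 to 5.01) in Control, a ratio of 0.719 with separate intervals. A row of 1236 nt from the last exons, annotated as a retained intron, was higher than the coding row in both libraries, at 7.76 FPKM in NP and 9.79 FPKM in Control. A further retained-intron row of 3001 nt was at 3.24 FPKM (2.37 to 4.12) in NP and listed at 0 in Control, with an upper limit of 0.0729 FPKM. In the opposite direction, the row for the whole genomic span, which can also take intronic reads, was listed at 0 in NP and was at 0.359 FPKM in Control. FPKM times row length in kilobases, written FPM here, lets each row count by its fragments. On that scale Stab1 was at 45.0 FPM (39.8 to 50.1) in NP and 58.4 FPM (52.7 to 64.1) in Control, a ratio of 0.770. The span row carried 18.2% of the fragments assigned to Stab1 in Control, and without it the log2 ratio in FPM was -0.087, against -0.38 with it. The outer 109 bases of Stab1 at its 3′ end overlap Nt5dc2, at 9.59 FPKM in NP and 10.1 FPKM in Control, so reads of the short row can be shared with that gene.

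For Stab2 the coding row of 8228 nt was at 3.61 FPKM (3.13 to 4.09) in NP and 4.03 FPKM (3.50 to 4.57) in Control. A row of 3504 nt at the 3′ end exceeded it, at 4.76 FPKM in NP and 5.59 FPKM in Control. The short row was 1.32 times the coding row in NP and 1.39 times in Control, compared with 2.42 times in NP and 2.2 times in Control for the shorter row of Stab1. The span row of Stab2, 166828 nt long, was listed at 0 in NP and was at 0.0832 FPKM in Control. This low value carried 20.8% of the fragments assigned to Stab2 in Control. Stab2 was at 46.4 FPM (41.4 to 51.4) in NP and 66.6 FPM (60.3 to 73.0) in Control, a ratio of 0.696. Without the span row the log2 ratio in FPM was -0.19, against -0.52 with it, so the size of the difference in FPM turned on the span row for both stabilins.

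**Figure D2:**
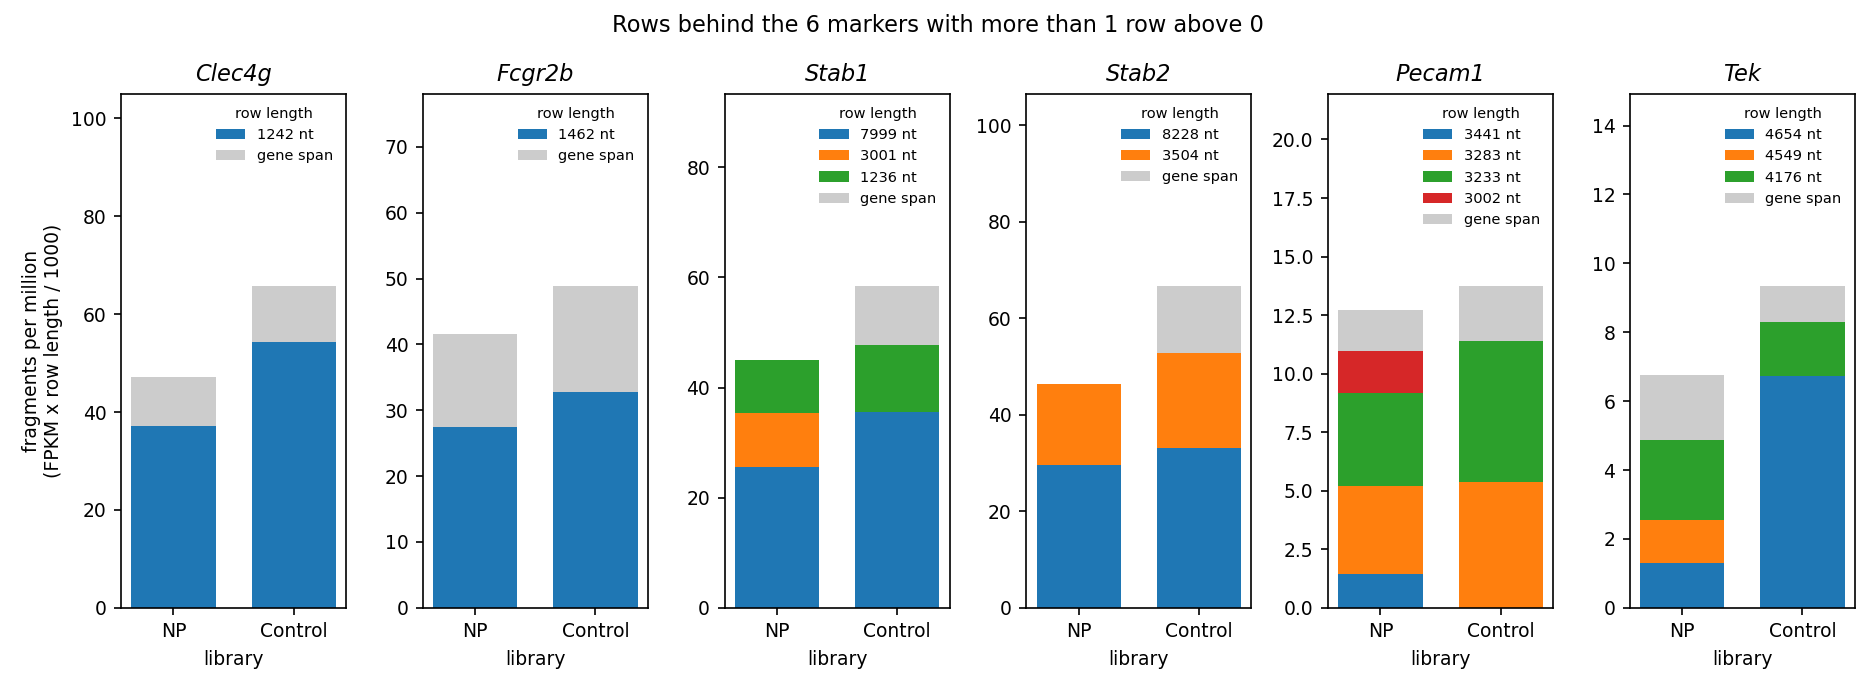
FPM (fragments, as FPKM times row length in kilobases) of each row of the 6 markers with more than 1 row above 0, stacked, with NP left of Control in each panel and 1 library each. Stab1 and Stab2 have a gene-span block (grey) in Control only, and the 4654 nt row of Tek is the main block in Control and a small one in NP.

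In FPM, all 10 markers were again lower in NP, against 57.5% of genes. Separate intervals with NP lower were found for 5 markers (Clec4g, Stab1, Stab2, Kdr and Oit3), against 9.9% of genes; with the span rows left out there were 3. At least 1.5-fold lower were 3 markers (Lyve1, Kdr and Oit3), against 6.24% of genes. Lyve1 again counts as a gene that passed the filter through its Control value. The ratios ran between 0.454 for Lyve1 and 0.927 for Pecam1, with a median of 0.721. The sum was 261 FPM in NP and 355 FPM in Control, a ratio of 0.735.

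RefSeq start-site windows of 300 bases, 250 before to 50 after the start, were at hand for 6 of the 10 markers. They were searched on both strands for 3 short motifs, whose factors act in sinusoidal endothelium. The first, AGGAAG, is bound by ETS factors such as ERG. The second, AGATAA, is bound by GATA factors, and the third, TGCTGA, by factors of the MAF family. AGGAAG occurred in Clec4g, Stab1 and Stab2 and in 35.4% of 32851 windows of the same length over all genes. AGATAA occurred in 1 of the 6, Tek, and in 11.2% of all windows. TGCTGA occurred in 2 of the 6, Stab1 and Tek, and in 19.5% of all windows. Such matches are letters in a window and not sites. The windows of Clec4g, Stab1 and Stab2 are shown because these receptors share AGGAAG, with matches to any of the 3 motifs in capitals; all lie on the minus strand of GRCm38.p6 and read 5′ to 3′ along the gene. The second block of capitals in Clec4g holds AGGAAG in 2 overlapping copies.
Clec4g, chr8:3720602-3720901: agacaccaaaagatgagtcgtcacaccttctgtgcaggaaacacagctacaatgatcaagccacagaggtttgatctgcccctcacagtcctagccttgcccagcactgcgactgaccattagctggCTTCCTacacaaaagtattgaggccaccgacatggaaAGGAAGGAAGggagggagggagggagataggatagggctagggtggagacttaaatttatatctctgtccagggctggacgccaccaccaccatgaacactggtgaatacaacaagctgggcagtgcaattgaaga
Stab1, chr14:31168592-31168891: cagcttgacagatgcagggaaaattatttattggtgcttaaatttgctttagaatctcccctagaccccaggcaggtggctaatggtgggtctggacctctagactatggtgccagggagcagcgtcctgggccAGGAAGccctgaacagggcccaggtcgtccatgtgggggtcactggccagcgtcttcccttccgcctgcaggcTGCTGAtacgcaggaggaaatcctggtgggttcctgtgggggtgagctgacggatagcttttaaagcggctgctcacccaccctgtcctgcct
Stab2, chr10:87007893-87008192: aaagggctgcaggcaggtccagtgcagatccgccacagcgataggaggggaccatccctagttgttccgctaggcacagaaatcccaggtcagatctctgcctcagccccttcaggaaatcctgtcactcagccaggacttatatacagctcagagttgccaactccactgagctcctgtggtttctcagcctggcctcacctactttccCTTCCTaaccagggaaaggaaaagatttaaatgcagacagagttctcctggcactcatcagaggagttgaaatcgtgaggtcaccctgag

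Lyve1, a hyaluronan receptor of sinusoidal and lymphatic endothelium (chromosome 7, 117994121 to 118006467), had the lowest level and the lowest ratio. It was at 0.711 FPKM (0.375 to 1.05) in NP and 1.57 FPKM (1.04 to 2.09) in Control. The intervals met at their ends, and the coverage behind them was 2.04 in NP and 3.22 in Control. Its half-width was 47.3% of the value in NP and 33.8% in Control, the widest of the markers in each library. Lyve1 passed the mean of 1 FPKM through its Control value.

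Fcgr2b encodes the inhibitory Fc receptor for IgG, which sinusoidal cells use to take up small immune complexes. It spans chromosome 1 from 172890689 to 172906678. Its level was 19.6 FPKM (17.2 to 22.1) in NP and 23.4 FPKM (20.6 to 26.3) in Control, a ratio of 0.838 with overlapping intervals. The extracellular exons of Fcgr2b resemble those of Fcgr3, and the treatment of reads shared by the pair is not stated in the labels or file headers.

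Among other differences, the coding rows of Fcgr2b differed in a cytoplasmic exon, which 2 of them hold and 2 lack. In the mouse, the form with this exon is known from B cells and resists endocytosis, while the form without it is taken up through coated pits and is known from macrophages. All transcript FPKM lay in 1 row without the exon (ENSMUST00000081103, 1462 nt), at 18.8 FPKM (16.3 to 21.2) in NP and 22.4 FPKM (19.6 to 25.3) in Control. Both coding rows that hold the exon were listed at 0 in both libraries. For ENSMUST00000027966, 1 of them, the upper limit was 0.128 FPKM in NP and 0.144 FPKM in Control. The exon has 141 bases and codes 47 residues in frame, at chr1:170963325-170963465 on the minus strand of GRCm38 (GENCODE M21). It is shown in capitals with 15 bases of each neighbouring exon in lower case, above the junction without it.
Fcgr2b with the exon: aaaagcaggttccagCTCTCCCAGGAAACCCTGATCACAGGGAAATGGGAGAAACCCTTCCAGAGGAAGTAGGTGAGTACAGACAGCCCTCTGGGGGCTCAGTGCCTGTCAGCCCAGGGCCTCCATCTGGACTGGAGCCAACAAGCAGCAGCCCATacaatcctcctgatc
Fcgr2b without the exon: aaaagcaggttccagacaatcctcctgatc

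The 2 junction molecules were Pecam1 and Cdh5. Cdh5 encodes VE-cadherin, the adherens junction cadherin of endothelium (chromosome 8, 106625525 to 106668402). Its single transcript row was at 2.43 FPKM (1.93 to 2.93) in NP and 2.99 FPKM (2.40 to 3.58) in Control, a ratio of 0.813 with overlapping intervals. Pecam1 encodes CD31, an adhesion and signalling receptor at endothelial contacts (chromosome 11, 106515531 to 106611942). It was at 3.41 FPKM (2.57 to 4.25) in NP and 3.52 FPKM (2.69 to 4.35) in Control, a ratio of 0.968 with overlapping intervals.

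Near-equal sums for Pecam1 came from different rows. The row of 3233 nt was at 1.23 FPKM (0.749 to 1.71) in NP and 1.86 FPKM (1.26 to 2.47) in Control. The row of 3283 nt was at 1.15 FPKM (0.673 to 1.62) in NP and 1.63 FPKM (1.07 to 2.2) in Control. Rows of 3441 and 3002 nt were at 0.423 and 0.594 FPKM in NP and listed at 0 in Control, with upper limits of 0.0631 and 0.0729 FPKM. The forms matched to the annotation differ at the cytoplasmic tail, where the exon of 57 bases codes an inhibitory tyrosine motif. The 3283 nt form holds a tail exon of 57 bases that the 3233 nt form lacks, and the 3441 nt form holds 23 bases more. Among coding rows matched to the annotation, those with the 57-base exon held 56.1% of the FPKM in NP and 46.7% in Control. The 23-base exon was in rows that held 15.1% in NP and 0% in Control. The 3002 nt row, at 0.594 FPKM in NP and 0 in Control, was not matched and is left out of these shares. Whether it holds either exon is not known here, so a shift in exon use cannot be read from them. A coverage of 1.21 in NP lay behind that 15.1%, so the split between rows is weakly determined. The 57-base exon lies at chr11:106671742-106671798 and the 23-base exon at chr11:106662002-106662024, both on the minus strand of GRCm38. Each is shown in capitals between 15 bases of its neighbours, with the shortest form last.
Pecam1, 57-base exon: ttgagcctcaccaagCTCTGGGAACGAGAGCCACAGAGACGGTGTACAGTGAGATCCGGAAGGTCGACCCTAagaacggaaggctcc
Pecam1, 23-base exon: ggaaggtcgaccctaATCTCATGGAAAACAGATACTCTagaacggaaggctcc
Pecam1, neither exon: ttgagcctcaccaagagaacggaaggctcc

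The growth factor receptors were both lower in NP. Kdr encodes VEGFR2, the main signalling receptor for VEGF-A (chromosome 5, 76328852 to 76374483). It was at 6.16 FPKM (5.48 to 6.83) in NP and 9.44 FPKM (8.52 to 10.4) in Control, a ratio of 0.652 with separate intervals. All of it lay in 1 coding row of 5924 nt, so the choice of rows did not touch this value. The coverage of that row was 17.8 in NP and 21.7 in Control, lower in NP although the NP library was deeper. Relative to Cdh5 within the same library, Kdr was 2.53 times as high in NP and 3.15 times as high in Control.

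Tek encodes TIE2, the angiopoietin receptor (chromosome 4, 94405980 to 94541667). The gene was at 1.13 FPKM (0.719 to 1.53) in NP and 1.83 FPKM (1.33 to 2.32) in Control, a ratio of 0.617 with overlapping intervals. In FPM, its ratio was 0.724, a log2 ratio of -0.47. The span row carried 27.7% of the fragments assigned to Tek in NP and 11.1% in Control, and without it the log2 ratio in FPM was -0.76. The Tek row of 4654 nt was at 0.280 FPKM (0.0774 to 0.483) in NP and 1.45 FPKM (1.04 to 1.86) in Control. The row of 4176 nt was at 0.561 FPKM (0.277 to 0.844) in NP and 0.372 FPKM (0.0938 to 0.649) in Control. A row of 4549 nt was at 0.272 FPKM in NP and listed at 0 in Control, with an upper limit of 0.0472 FPKM. The 4654 nt row, highest by its mean, thus gave a ratio of 0.193, far below that of the gene, with a coverage of 0.746 in NP and 3.29 in Control.

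The 4549 nt form of Tek lacks an exon of 153 bases, coding 51 residues in frame in the extracellular part. Coding rows with this exon held 75.5% of the transcript FPKM in NP and 100% in Control. No Tek row had a coverage above 1.49 in NP, so these shares rest on few reads. The exon lies at chr4:94799127-94799279 on the plus strand of GRCm38 and is shown in capitals between 15 bases of each neighbour, above the junction without it.
Tek with the exon: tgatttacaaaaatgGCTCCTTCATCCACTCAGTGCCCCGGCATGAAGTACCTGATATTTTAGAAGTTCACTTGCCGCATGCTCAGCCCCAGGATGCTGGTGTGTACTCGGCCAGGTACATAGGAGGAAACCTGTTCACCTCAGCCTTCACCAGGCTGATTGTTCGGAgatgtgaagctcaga
Tek without the exon: tgatttacaaaaatggatgtgaagctcaga

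Oit3 encodes a secreted protein with a zona pellucida domain that marks sinusoidal endothelium in liver (chromosome 10, 58885706 to 58904526). It was at 5.05 FPKM (4.16 to 5.93) in NP and 7.72 FPKM (6.54 to 8.89) in Control, a ratio of 0.654 with separate intervals. Its coding row of 2717 nt held all of it, with a coverage of 15 in NP and 17.9 in Control.

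**Figure D3:**
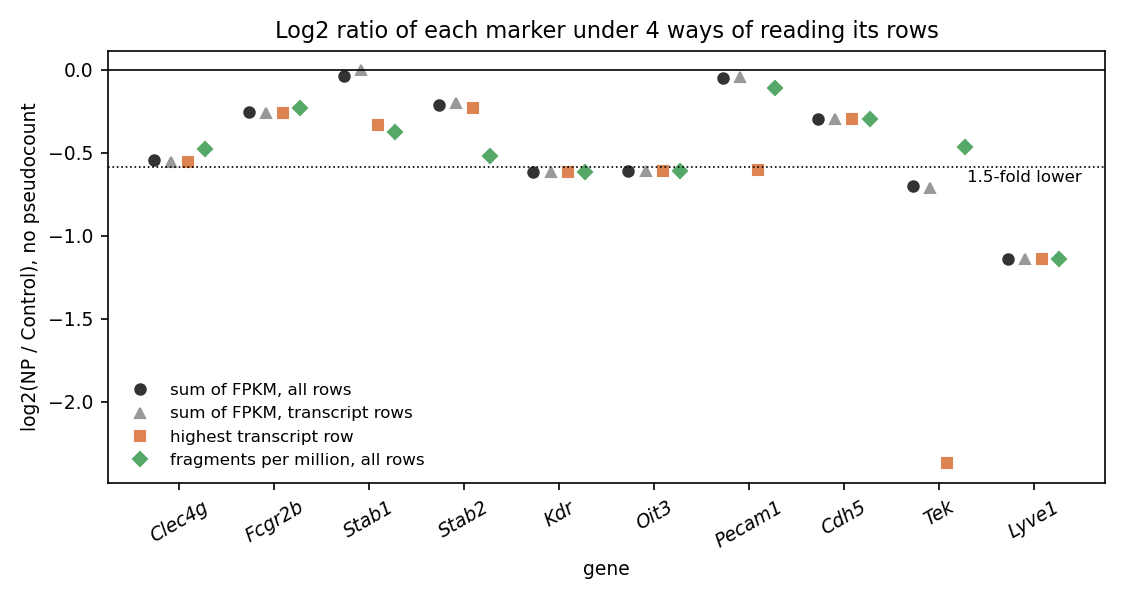
Log2 ratio of NP to Control for each marker, without a pseudocount, from the sum of FPKM over all rows, the sum over transcript rows, the highest transcript row, and FPM; the dotted line marks 1.5-fold lower. Kdr, Oit3, Cdh5 and Lyve1 keep 1 value, while Stab1, Stab2, Pecam1 and Tek move with the choice.

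Across their rows, the markers had 48 transcript rows, of which 14 were above 0 in both libraries and 30 at 0 in both. Of those 14, 13 were lower in NP, the exception being the 4176 nt row of Tek. A further 4 transcript rows were above 0 in NP and at 0 in Control, from Stab1, Tek and Pecam1, and 0 were above 0 in Control and at 0 in NP. Span rows were above 0 for 4 markers in NP and for 6 in Control. For these row counts no matching share over all transcript rows was at hand. Several of the rows belong to the same gene, so they do not count as separate evidence.

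Other genes of the VEGF and angiopoietin pathway were set beside Kdr and Tek. Of 22 listed genes 18 passed the mean of 1 FPKM, and 15 of these were lower in NP and 3 higher. Of the 10533 genes, 54.4% were lower in NP. The median log2(FPKM + 1) ratio of the list was -0.22. Lists share genes, here Flt4, Nrp1, Ptprb, Tie1 and Flt1, so counts of different lists are not separate evidence. Intervals were separate with NP lower for 4, namely Flt4, Ptprb, Nrp1 and Plcg1, against 9.58% of the 10533 genes. They were separate with NP higher for 0, against 7.73% of genes. Flt4, the VEGF-C receptor VEGFR3, was at 2.31 FPKM in NP and 3.53 FPKM in Control. Ptprb, the phosphatase VE-PTP that acts on TIE2 and VE-cadherin, was at 3.89 FPKM in NP and 5.90 FPKM in Control. Nrp1, a VEGF co-receptor, was at 7.98 FPKM in NP and 10.6 FPKM in Control, and its relative Nrp2 was at 3.42 FPKM in NP and 4.10 FPKM in Control. Tie1, the TIE2 partner, was at 2.65 FPKM in NP and 3.59 FPKM in Control, and Flt1, which encodes VEGFR1, at 1.06 FPKM in NP and 1.5 FPKM in Control. For Tie1, Flt1 and Nrp2 the intervals overlapped.

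Most ligands of these receptors had overlapping intervals. Vegfa, the chief ligand of VEGFR2, was at 40.6 FPKM (38.1 to 43.1) in NP and 44.7 FPKM (41.8 to 47.5) in Control. Vegfb, a VEGFR1 ligand, was at 9.90 FPKM in NP and 9.29 FPKM in Control. Vegfc was at 1.61 FPKM in NP and 1.03 FPKM in Control, and Figf, which encodes VEGF-D, at 0.666 FPKM in NP and 1.39 FPKM in Control. Angpt1, the activating angiopoietin, was at 0.178 FPKM in NP and 0.101 FPKM in Control. Angpt2 was listed at 0 in both libraries.

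Of the shared signalling and junction genes, Plcg1, a phospholipase downstream of VEGFR2, was at 9.18 FPKM in NP and 11.8 FPKM in Control. Jup, which encodes plakoglobin, was at 8.92 FPKM in NP and 11.3 FPKM in Control with overlapping intervals. The catenins that bind cadherins lay close together in the libraries: Ctnnb1 was at 57.2 FPKM in NP and 59.4 FPKM in Control, Ctnnd1 at 19.3 FPKM in NP and 20.1 FPKM in Control, and Ctnna1 at 26.4 FPKM in NP and 26.2 FPKM in Control. These genes are expressed by many cell types. The adaptors Shc1 and Ptpn11 and the transcription factor gene Vezf1 had ratios of 0.918, 0.948 and 0.802, with overlapping intervals.

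Further sinusoidal genes were mostly lower in NP with exceptions. Of 19 that passed the filter from a list of 23, 14 were lower and 5 higher, against 54.4% of all genes lower. The median log2 ratio was -0.21. Intervals were separate with NP lower for 4, Flt4 and Nrp1 among them, against 9.58% of all genes. They were separate with NP higher for 2, against 7.73%. Gpr182, an atypical chemokine receptor of endothelium, was at 6.35 FPKM in NP and 9.23 FPKM in Control with overlapping intervals. Cd36, a fatty acid receptor also present in other cells, was at 5.09 FPKM (4.14 to 6.04) in NP and 2.66 FPKM (1.93 to 3.39) in Control. Ctsl, a lysosomal protease that hepatocytes also make, was at 452 FPKM in NP and 409 FPKM in Control. Of 16 pan-endothelial genes past the filter, 14 were lower in NP, with a median of -0.26. S1pr1, the sphingosine 1-phosphate receptor, was at 16.5 FPKM in NP and 14.4 FPKM in Control, and Calcrl, a receptor for adrenomedullin, at 1.95 FPKM in NP and 1.6 FPKM in Control, both with overlapping intervals. Gpr116, an adhesion receptor, was at 2.77 FPKM (2.37 to 3.18) in NP and 4.10 FPKM (3.57 to 4.64) in Control. Eng, Egfl7 and Ramp2, which endothelium in general expresses, were listed at 0 in both libraries, and such a 0 can be a failed estimate.

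Genes of other vessels gave smaller lists. Large-vessel and capillary genes had a median of -0.17 over 6 genes, with Plvap, a diaphragm protein of fenestrae, at 12.3 FPKM in NP and 13.6 FPKM in Control. All 5 lymphatic genes past the filter were lower, against 54.4% of all genes, with a median of -0.32. Among them were Prox1, at 12.1 FPKM in NP and 16.2 FPKM in Control, which hepatocytes also express, and Reln, at 12.0 FPKM in NP and 13.8 FPKM in Control, which stellate cells also express. The lymphatic genes Pdpn, Ccl21a and Ccl21b were listed at 0 in both libraries, and Mmrn1 was at 0.00336 FPKM in NP and 0.0745 FPKM in Control. Adhesion genes had a median of -0.06 over 7 genes, 5 lower in NP and 2 higher, all with overlapping intervals. The highest ratio was that of Icam1, an inducible leukocyte ligand, at 7.33 FPKM in NP and 6.19 FPKM in Control. The lowest was that of Cxcl16, at 2.65 FPKM in NP and 3.53 FPKM in Control.

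Scavenger receptor genes went both ways. Of 12 past the filter, 5 were lower in NP and 7 higher, against 54.4% of all genes lower. The median was 0.05, and it was -0.055 in FPM. Intervals were separate with NP lower for 3 (Scara5, Ptprb and Mrc1), against 9.58% of all genes. They were separate with NP higher for 1 (Cd36), against 7.73%. Scara5, a ferritin receptor, had the lowest ratio of the list, at 1.09 FPKM (0.751 to 1.43) in NP and 3.55 FPKM (2.89 to 4.21) in Control. Mrc1, the mannose receptor of sinusoidal cells and macrophages, was at 4.53 FPKM in NP and 5.90 FPKM in Control. The most abundant, Asgr1, a hepatocyte receptor for desialylated glycoproteins, was at 368 FPKM in NP and 333 FPKM in Control. Angiocrine genes, which code signals that endothelium sends to hepatocytes, had a median of 0.05 over 10 genes. Rspo3, a Wnt enhancer, was at 1.5 FPKM in NP and 1.28 FPKM in Control. Dll4, a Notch ligand, was at 0.738 FPKM in NP and 1.31 FPKM in Control, and Gas6, a ligand of TAM receptors, at 20.3 FPKM in NP and 16.7 FPKM in Control, both with overlapping intervals.

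Markers of other liver cells moved too, and their part in the marker differences was not tested. For Kupffer cells and other macrophages, 12 of 16 genes in the files passed the filter, with a median of -0.34. Of the 12, 9 were lower in NP and 3 higher, against 54.4% of all genes lower. The summed level of all 16 was 95.6 FPKM in NP and 114.9 FPKM in Control. Separate intervals with NP lower, seen in 9.58% of all genes, were found for 2 of the 12, and no others were separate. The 2 were Clec4f and Cd5l. Clec4f, a Kupffer cell lectin with the lowest ratio of the 12, was at 7.63 FPKM in NP and 18.4 FPKM in Control. Cd5l, a secreted macrophage protein, was at 5.19 FPKM in NP and 8.22 FPKM in Control. The 3 higher genes were Folr2 at 1.67 FPKM in NP and 0.974 FPKM in Control, Lyz2 at 9.98 FPKM in NP and 8.89 FPKM in Control, and Slc40a1 at 45.7 FPKM in NP and 44.8 FPKM in Control. Stellate genes had a median of -0.31 over the 11 that passed the filter, and all 16 in the files summed to 139 FPKM in NP and 174 FPKM in Control. Of the 11, 10 were lower in NP, against 54.4% of all genes, and 7 had separate intervals with NP lower, against 9.58%. Among the 7 was Lrat, a retinoid-storing enzyme, at 0.902 FPKM in NP and 1.78 FPKM in Control. Lrat and Pdgfrb, another of the 7, passed the mean of 1 FPKM through their Control values. Erythroid genes, which come with blood left in the tissue, had a median of -0.26 over 5 genes. The B cell gene Ighm was at 2.46 FPKM in NP and 4.08 FPKM in Control, and Cd79a and Ms4a1 were below 0.4 FPKM in both libraries. Hepatocyte genes had a median of 0.26 over 13 genes, of which 11 were higher in NP and 2 lower. Intervals were separate with NP higher for 9, against 7.73% of all genes past the filter. They were separate with NP lower for 2, against 9.58% of those genes. These 2 were Ass1, at 41.0 FPKM in NP and 67.5 FPKM in Control, and Cyp2e1, at 4812 FPKM in NP and 5880 FPKM in Control. Alb, the albumin gene, was at 30741 FPKM in NP and 21660 FPKM in Control. FPKM are shares of a library, and the part of this in the marker levels was not tested. Scaling the libraries to the median, upper quartile or trimmed mean of all genes multiplied NP values by 1.02, and the NP interval of 3 markers stayed below that in Control under each.

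**Figure D4:**
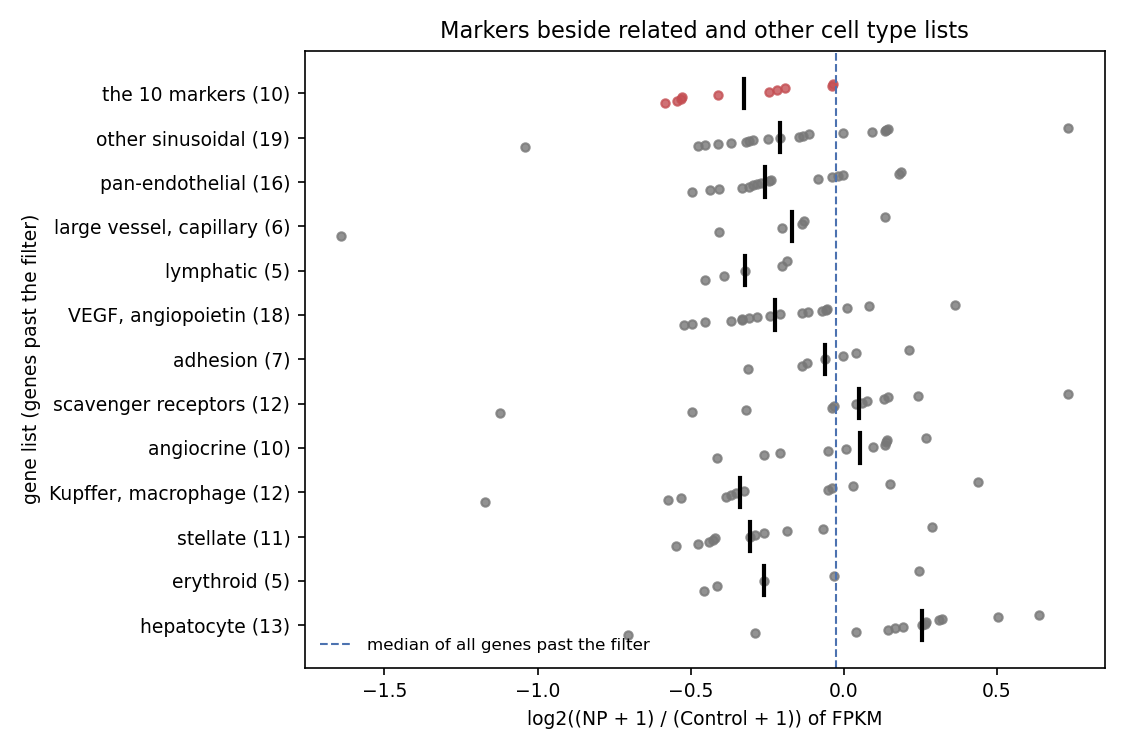
Log2((NP + 1)/(Control + 1)) of FPKM for each gene past the filter (points) and the median of each list (black bars), for the 10 markers (top) and 12 other lists, 1 library per group; the dashed line is the median of all genes. The 10 markers all lie below 0, as do the medians of the stellate, Kupffer and pan-endothelial lists, while the hepatocyte median lies above it.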

How the data were processed

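RNA-seq libraries of CD-1 mouse liver were compared, 1 for NP and 1 for Control. Trizol extraction of frozen liver and an Illumina TruSeq RNA kit are stated per the labels' protocols, and no read length or strandedness. The submitters' processing notes name build mm9, TopHat2 2.1.0 and Cufflinks 2.2.1.0, without roles or settings. Per the file headers, the deposited values are FPKM with a 95% interval and a read coverage, a signal not scaled to library size, for each transcript and each gene span. The number of mapped fragments was not given; coverage per FPKM was 2.91 in NP and 2.27 in Control. The 10 markers and all lists were chosen with earlier results of these data known.

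FPKM of all rows of a gene were summed, and half-widths of row intervals above 0 were combined in quadrature, without covariance between rows. A row named by its gene was taken as the genomic span unless it was the gene's sole row. Genes needed a mean of at least 1 FPKM, no failed row, a row of at least 300 nt and no small RNA name, which left 10533. A list needed 5 genes for a median, and a gene could stand in more than 1 list. Named genes were all markers, every VEGF and angiopoietin gene above 0 in both libraries, and, from other lists, genes among the highest, lowest and most abundant; others were named after their values were seen. Alternatives covered the pseudocount, filter, scaling, rows and size; FPM (FPKM times row length in kilobases) was added after seeing the data. Start positions were converted to count from 1. Sequences came from GENCODE M21 and RefSeq (GRCm38); 40 of 48 transcript rows matched by identifier, 36 with the same length. The size rule was tried on simulated data with the same noise at every level and changes only in genes of at least 5 FPKM. That trial does not cover low markers such as Lyve1 and Tek, or spread between animals. Software was numpy 2.4.6, scipy 1.17.1, pandas 2.3.3 and matplotlib 3.10.9 under Python 3.11.15.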

Additional observations from a re-analysis of the deposited data

How the results depend on the processing

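No paired analysis was possible because each group has 1 library, and for the same reason no replicate could be left out. The ratio of every marker stayed below 1 in all 90 alternative values computed for single markers, of which 7 moved past the propagated interval (Lyve1 4 times, Stab1, Stab2 and Tek once each). Scaling NP by the median, upper quartile or trimmed mean shifted log2 ratios by 0.03 and changed no count of markers. The number of markers at least 1.5-fold lower, 0 with a pseudocount of 1, was 4 with a pseudocount of 0.1 or none, 1 with the highest transcript row, 3 in FPM, 4 in FPM of transcript rows, and 5 at a smaller fold size. Of all genes, 798 were at least 1.5-fold lower with a pseudocount of 0.1, 774 with none and 651 in FPM. For the highest transcript row, FPM of transcript rows and the smaller fold size, no all-gene count was at hand. The marker counts under those rules therefore have no comparison. FPM gave 5 markers with the NP interval wholly below, against 3 for summed FPKM. The markers' median was -0.44 with the highest transcript row and -0.47 in FPM, and 7 markers in each library left their rank with the highest row. The pan-endothelial median was -0.37 with a pseudocount of 0.1, -0.39 with none and -0.11 without a filter. Without a filter the large-vessel, lymphatic and erythroid medians were -0.048, -0.18 and -0.067. At a mean of at least 5 FPKM the VEGF and angiopoietin median was -0.094, and 246 genes were 1.5-fold lower and 218 higher, against 561 and 379. In FPM the scavenger, Kupffer and stellate medians were -0.055, -0.52 and -0.45; the scavenger median thus lay on the other side of 0. The cause of these shifts was not tested. Depth limits Lyve1, Tek and the row shares of Pecam1 most.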

Other observations

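Of the genes of the other lists that passed the filter, Scara5, Clec4f, Ly6a, Itga2b and Fcer1g had ratios of NP to Control below that of Lyve1. Like Lyve1, the genes Ly6a, Itga2b and Pf4 passed the mean of 1 FPKM through their Control values, which favours a low ratio. Ly6a, which encodes the surface antigen SCA-1, was at 0.430 FPKM (0.0441 to 1.01) in NP and 3.46 FPKM (1.94 to 4.97) in Control. Itga2b, an integrin of platelets and megakaryocytes, was at 0.893 FPKM in NP and 2.95 FPKM in Control with separate intervals, and Pf4, a platelet chemokine, at 0.910 FPKM in NP and 1.46 FPKM in Control with overlapping ones. Fcer1g, an Fc receptor chain of myeloid cells, was at 1.57 FPKM in NP and 4.27 FPKM in Control with overlapping intervals.

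Of the neutrophil, bile duct and T cell genes, those given here had overlapping intervals in the libraries. S100a8 was at 2.84 FPKM in NP and 2.67 FPKM in Control, and S100a9 at 2.55 FPKM in NP and 1.76 FPKM in Control. Spp1, expressed by bile duct cells, was at 11.4 FPKM in NP and 15.1 FPKM in Control. The T cell gene Cd3g was at 1.21 FPKM in NP and 0.810 FPKM in Control.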
